A study of Homo sapiens with 38 samples.

Results

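The genes described here are the 4 EGR genes (EGR1, EGR2, EGR3 and EGR4), the 3 NR4A genes (NR4A1, NR4A2 and NR4A3) and the 2 genes of the EGR-binding NAB proteins (NAB1 and NAB2). They were chosen by name, with earlier results of these data known. They are 9 of the 20037 protein-coding gene records that RefSeq lists on the chromosomes of the data. For each gene, every region in 3 deposited lists of peaks was taken that touched the RefSeq gene record or the 50 kb on either side of it. The stretch of record and flanks is called the window of the gene. The 9 windows held 58 of 26205 regions listed for the transcription factor BHLHE40, 38 of 29009 listed for the transcription factor GATA3, and 119 of 113570 listed for H3K27ac, an acetylated histone found at active promoters and enhancers.

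EGR genes encode zinc-finger transcription factors that are switched on within minutes of T cell receptor signalling, without new protein synthesis, which is why they are called immediate-early genes. NR4A genes encode orphan nuclear receptors that answer the same signals, and both families are known for promoting as well as restraining T cell activation. NAB proteins bind EGR factors and repress their targets, and NAB2 is itself a target of EGR factors. BHLHE40 is a basic helix-loop-helix factor that recognises the E-box CACGTG and acts mostly as a repressor, and GATA3 is a zinc-finger factor that directs T cell development and binds GATA motifs.

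The study used ChIP-seq, in which DNA attached to an immunoprecipitated protein is sequenced, on Jurkat cells, an established line grown from a human T cell leukaemia. Its 38 samples formed 19 groups of 2. The 3 groups used here (6 samples) were Jurkat cells that carried the control lentivirus Ctrl_LV. They had been stimulated with 50 ng/ml of PMA and 500 ng/ml of ionomycin. PMA and ionomycin together bypass the T cell receptor and start its signalling pathways. The duration was 5 hours in the labels of the samples and 2 hours in the treatment protocol. The 3 groups differed only in the antibody, against BHLHE40, GATA3 or H3K27ac. No list from resting cells was used, so the values describe stimulated cells and not a response to stimulation. The other 16 groups were not analysed here.

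Each group was represented by 1 list for its 2 samples, without a value per sample. No spread between replicates and no test between samples can therefore be given, and all comparisons below are descriptions. Depth is unknown. The signal value of a region is the authors' measure of its enrichment, relative to a background not given in the sources used here, and is ranked only within its own list, rank 1 being the strongest. The −log10 q of a region, also the authors' value, grows with the evidence that the region stands above background. As a check of the cell type, an H3K27ac region of at least 500 bp with −log10 q of at least 5 lay within 2 kb of 8 of 8 T cell marker genes and of TAL1, which Jurkat cells are known to express. Such a region lay near 50.0% of all protein-coding records. None lay near the 4 B cell, 4 myeloid, 3 erythroid and 2 epithelial marker genes.

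The promoters of 5 members are printed because they differ in their matches to motifs of signal-dependent factors and in how far the peak regions covered them. Each line gives the 250 bases before a transcription start, 5′ to 3′ on the strand of the gene, from the RefSeq promoter table of GRCh38.p14. Capitals mark the TGACG core of the cyclic AMP response element (CGTCA on the other strand), serum response elements and the EGR motif GCGGGGGCG. The sequences are EGR1 at chr5:138465229-138465478 on the plus strand, EGR2 at chr10:62816367-62816616 on the minus strand, EGR4 at chr2:73293549-73293798 on the minus strand, NR4A3 at chr9:99821635-99821884 on the plus strand and NAB2 at chr12:57088864-57089113 on the plus strand.
EGR1: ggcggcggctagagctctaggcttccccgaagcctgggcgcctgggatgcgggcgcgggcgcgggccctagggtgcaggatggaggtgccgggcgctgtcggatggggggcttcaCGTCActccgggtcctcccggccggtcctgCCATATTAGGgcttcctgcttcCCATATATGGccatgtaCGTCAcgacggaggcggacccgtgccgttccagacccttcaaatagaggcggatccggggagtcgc
EGR2: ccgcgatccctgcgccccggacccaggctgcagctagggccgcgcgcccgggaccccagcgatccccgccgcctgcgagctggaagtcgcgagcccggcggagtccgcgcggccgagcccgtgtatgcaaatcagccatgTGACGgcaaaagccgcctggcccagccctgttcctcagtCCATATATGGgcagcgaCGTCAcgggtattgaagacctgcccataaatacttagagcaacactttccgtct
EGR4: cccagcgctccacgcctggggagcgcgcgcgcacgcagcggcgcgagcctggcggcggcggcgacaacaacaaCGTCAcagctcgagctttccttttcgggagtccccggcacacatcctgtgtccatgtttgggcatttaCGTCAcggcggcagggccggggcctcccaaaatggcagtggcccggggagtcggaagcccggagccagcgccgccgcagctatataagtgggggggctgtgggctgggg
NR4A3: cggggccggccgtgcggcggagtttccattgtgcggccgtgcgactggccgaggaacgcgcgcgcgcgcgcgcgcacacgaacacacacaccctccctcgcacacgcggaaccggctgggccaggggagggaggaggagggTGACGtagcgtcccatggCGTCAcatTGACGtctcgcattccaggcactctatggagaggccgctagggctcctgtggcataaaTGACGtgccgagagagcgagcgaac
NAB2: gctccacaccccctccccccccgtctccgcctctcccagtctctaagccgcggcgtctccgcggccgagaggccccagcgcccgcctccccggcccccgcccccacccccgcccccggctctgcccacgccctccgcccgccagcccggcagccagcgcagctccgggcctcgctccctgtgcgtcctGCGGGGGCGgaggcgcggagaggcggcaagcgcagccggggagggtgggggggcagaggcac

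The EGR1 promoter held serum response elements beginning 105 and 83 bases before the start (CCATATTAGG and CCATATATGG), and TGACG cores beginning 135 and 66 bases before it. The EGR2 promoter held the same CCATATATGG element 71 bases before its start, between TGACG cores at 110 and 54 bases. Serum response elements are the sites of serum response factor, which works with ELK factors, and the core element is bound by CREB and ATF factors. The EGR4 promoter held TGACG cores 177 and 109 bases before its start, and the NR4A3 promoter held 4, at 109, 91, 83 and 25 bases. The NAB2 promoter held GCGGGGGCG, a sequence that EGR factors bind, beginning 62 bases before the start.

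The same search was made on both strands of all 12 promoters of the 7 members that the table matched, each 300 bases long from 250 before to 50 after a start, and of all 35116 promoters of the table. EGR3 and NR4A2 had no entry. Serum response elements occurred in 2 of the 12 promoters and in 1.29% of the table, and TGACG in 7 of the 12 (of EGR1, EGR2, EGR4, NR4A3 and NAB1) and in 24.6% of the table. The full element TGACGTCA, which contains TGACG, was in none of the 12 and in 1.85% of the table. GCGGGGGCG was in 3 of the 12 (2 of NAB1 and 1 of NAB2, in 5.07% of the table) and the related GCGTGGGCG in 2, both of NAB1 (0.795% of the table). The E-box CACGTG was in 1 promoter, before the EGR2 start at 62818775 (7.26% of the table), and the wider CANNTG, which includes CACGTG, was in 5 of 12, of EGR2 and NAB1 (68.7%). The GATA factor motif AGATAA was in 3, of EGR2, NAB1 and NR4A1 (10.3% of the table), and its variant TGATAA was in none (7.53%). The ETS motif CGGAAGT was in none (6.83%). These are matches of letters within a fixed stretch, overlapping promoters of 1 gene are not independent, and a missing match says only that the letters were not in that stretch.

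Peak regions covered the printed promoters unequally. All 250 bases of the EGR1 promoter lay in a BHLHE40 region and in a GATA3 region, and 204 lay in an H3K27ac region. All 250 bases of the EGR2 promoter lay in BHLHE40 and H3K27ac regions and 0 in a GATA3 region. The EGR4 and NR4A3 promoters also lay wholly in BHLHE40 regions and held 0 bases of a GATA3 region, with 171 and 79 bases in H3K27ac regions. Of the NAB2 promoter only the first 58 bases lay in a BHLHE40 region, and 0 in a region of another list. The EGR2 promoter that holds CACGTG had 0 bases in a region of any of the 3 lists. The same held for the EGR2 promoter at 62819167, the NR4A1 promoters at 52022832 and 52037715 and the NAB1 promoter at 190659158. The NAB1 promoters at 190648895 and 190649083 held 250 and 170 bases of BHLHE40 regions and 0 of a GATA3 region. No share over all promoters of the table is given for this coverage.

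At the genes themselves, a BHLHE40 region lay in the record or within 2 kb of it for 9 of 9 members, against 58.7% of all protein-coding records. A GATA3 region lay there for 7 of 9, against 44.4%, and was lacking at EGR4 and NR4A2. An H3K27ac region lay there for 9 of 9, against 74.9%, and one with −log10 q of at least 5 for 7 of 9, against 59.2%, the exceptions being EGR4 and NR4A2 again. Each of the 3 lists had a region there, not necessarily overlapping those of the others, for 7 of 9 members, against 38.4%. A BHLHE40 region from the strongest 10% of its list lay at 5 of 9, namely EGR1, EGR3, NR4A1, NR4A3 and NAB1, against 9.26%.

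Over the whole windows, NR4A3 and NR4A1 had the most BHLHE40 regions, 13 and 11. EGR3 had 8, NAB2 had 7, EGR2 had 6, EGR1 had 5 and NAB1 had 4, while EGR4 and NR4A2 had 2 each, which is the median of all protein-coding windows. GATA3 regions numbered 8 each at NR4A3 and NAB1, 6 at EGR2, 5 each at EGR3, NR4A1 and NAB2, 1 at EGR1 and 0 at EGR4 and NR4A2, beside a median of 2. The 2 factors thus ordered the genes differently, EGR1 being low for GATA3 and NAB1 high. H3K27ac regions ran from 6 at EGR2 and NR4A2 to 23 at NAB2, beside a median of 8, and 44 of the 119 had −log10 q of at least 5. The 3 genes with the longest records (NR4A3, NAB1 and NR4A1, 36672 to 45007 bp) also have the longest windows.

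**Figure D1:**
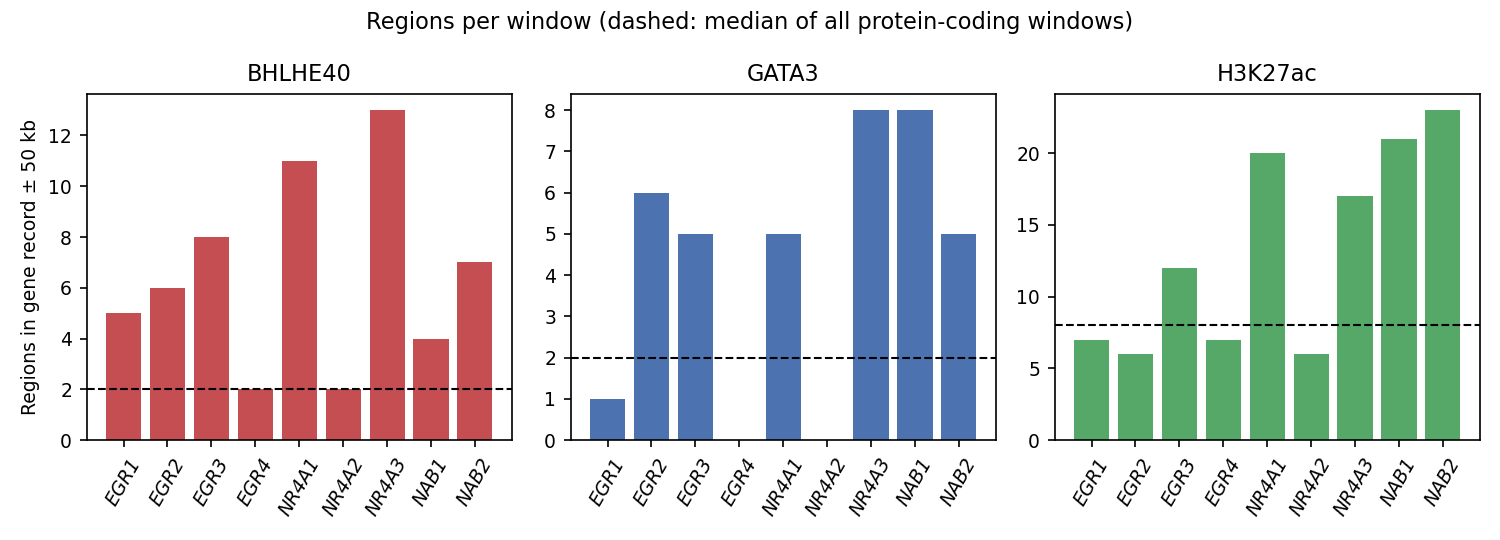
Number of regions (vertical axes) of each list in the window of each gene (horizontal axes), 1 bar per gene, with the median of 20037 protein-coding windows as a dashed line. NR4A1 and NR4A3 stand highest for BHLHE40, with 11 and 13 regions, and EGR4 and NR4A2 have no bar for GATA3.

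The map of the 9 windows shows where these regions fell. At EGR1, NR4A1 and NR4A3 the BHLHE40 regions lay over and beyond the gene, whereas at NAB2 and NR4A2 they lay beside the record and did not touch it.

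**Figure D2:**
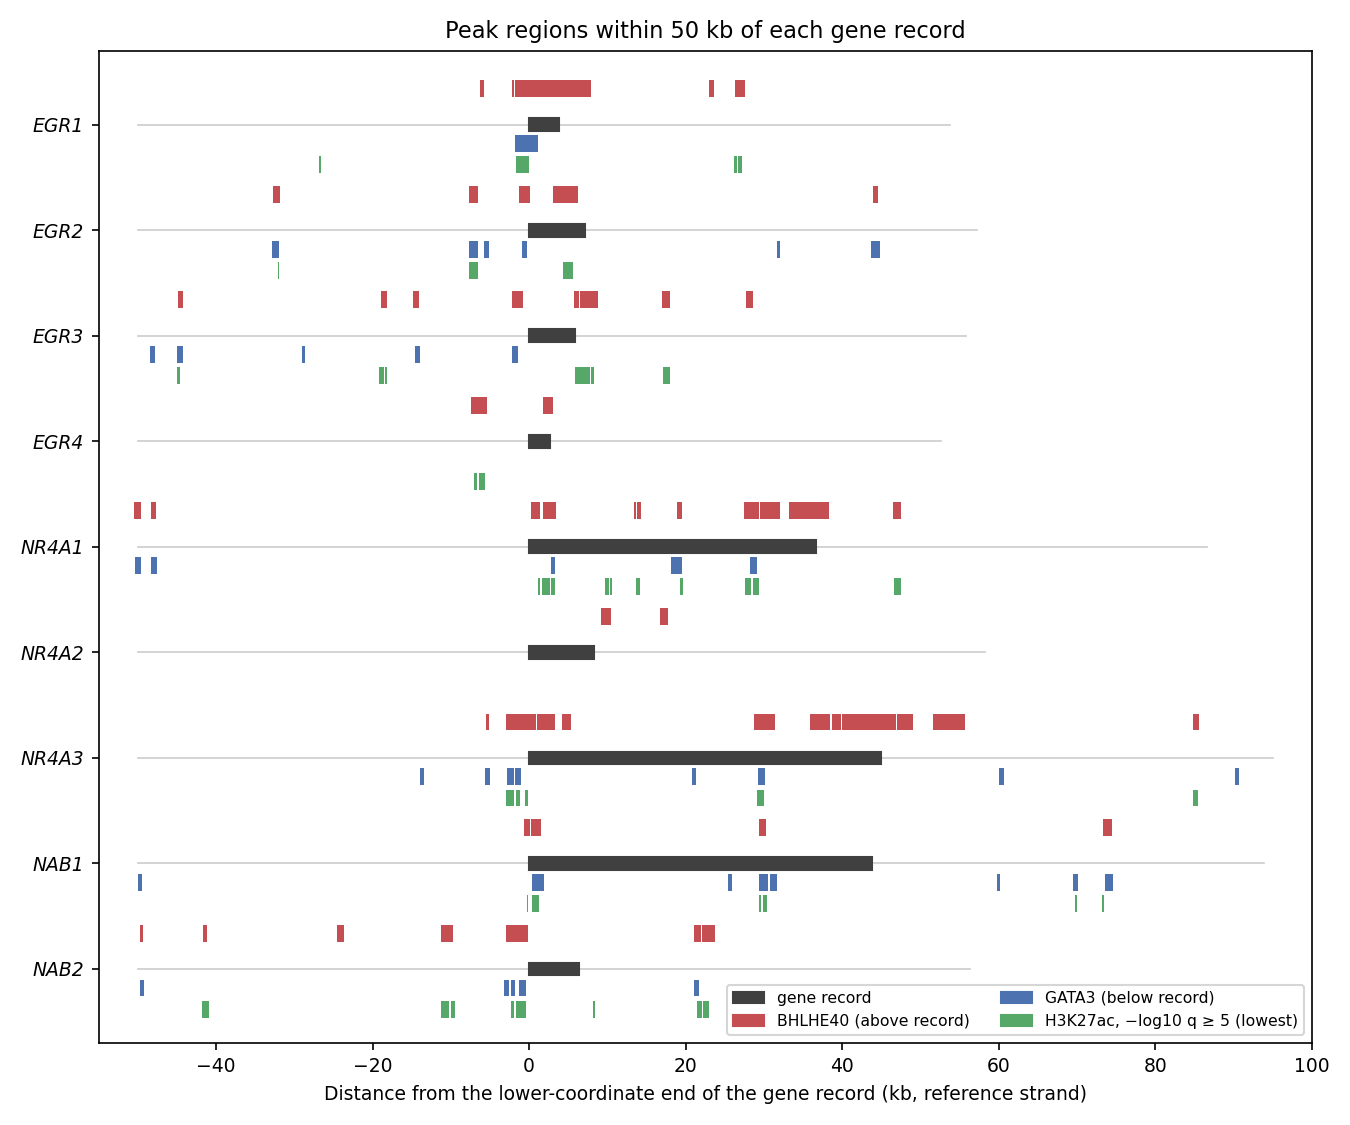
Regions in the 9 windows, to scale, against the distance from the lower-coordinate end of each gene record in kb. Dark bars are gene records, red bars above them BHLHE40 regions, blue bars below them GATA3 regions and the lowest green bars H3K27ac regions with −log10 q of at least 5. Red bars overlie the records of 7 genes and leave those of NR4A2 and NAB2 free.

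EGR1, the best known member of its family, lies on the plus strand of chromosome 5 at 138465479 to 138469303 (GRCh38), a record of 3825 bp. A single BHLHE40 region, 138463713 to 138473418, contained the whole gene. It was 9706 bp wide, beside a median of 739 bp for the list, its signal value of 49.9 ranked 372 of 26205, and its −log10 q was 718. It reached 1766 bp before the gene and 4115 bp past it, and its summit lay 419 bp beyond the gene's 3′ end rather than at the promoter.

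The other lists gave EGR1 another shape. Its 1 GATA3 region, 138463722 to 138466572, covered the promoter and the first 28.6% of the record, with a summit 604 bp before the start and a low signal value of 5.81 (rank 27302 of 29009). The strongest H3K27ac region, 138463794 to 138465432 (1639 bp, signal value 7.34, rank 5989), ended 47 bp before the start, and a short weak one, 138470233 to 138470467 (signal value 2.23, −log10 q 3.17), began 930 bp after the end. No base of the EGR1 record itself lay in an H3K27ac region. H3K27ac regions covered 19.3% of the wide BHLHE40 region. A further BHLHE40 region at 138463355 to 138463605, within 2 kb of the record, was weak, with a signal value of 2.76.

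EGR2, a factor with roles in T cell anergy and in nerve myelination, lies on the minus strand of chromosome 10 at 62811996 to 62819167, with RefSeq starts at 62819167, 62818775 and 62816366. BHLHE40 covered 46.3% of the record with 3 separate regions of moderate strength. The widest, 62814995 to 62817548 (2554 bp, signal value 6.82), lay over the innermost start, and 62817630 to 62818295 (666 bp, 7.73) lay between the starts. The third, 62810678 to 62812098 (1421 bp, 10.9), spanned the 3′ end of the gene without H3K27ac, and the only GATA3 region at the gene lay within it, at 62811135 to 62811725 (signal value 7.53). H3K27ac was strongest in the window at the innermost start, at 62816325 to 62817556 (1232 bp, signal value 10.7, rank 1968 of 113570).

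By signal value, the strongest regions of both factors in the EGR2 window lay far from the gene. GATA3 reached a signal value of 63.3 (rank 896) at 62855707 to 62856784, with the summit 37079 bp upstream of the first start. A BHLHE40 summit lay 27 bp from it (signal value 10.4), and no H3K27ac region overlapped that place. This was the strongest GATA3 region of all 9 windows. The strongest BHLHE40 region, 62779306 to 62780152 (signal value 11.6, rank 9410), lay beyond the other end of the gene, its summit 32422 bp below the record. Its signal value was close to the 10.9 at the 3′ end. By −log10 q another region, 62804261 to 62805493, was highest (62.3).

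EGR3, which acts together with EGR2 in restraining T cells, lies on chromosome 8 at 22687659 to 22693480. BHLHE40 regions lay at either end of the record and covered only 1.87% of it. On the higher side, 22693372 to 22694019 (648 bp, signal value 7.05) touched the record and 22694107 to 22696404 (2298 bp, 24.9, rank 2009) followed it, and an H3K27ac region at 22693552 to 22695459 (signal value 5.63) overlapped both. The stronger summit lay 1779 bp above the record, in the record of LOC105379321. On the lower side, a GATA3 region at 22685462 to 22686194 (signal value 42.9, rank 1916) and a BHLHE40 region at 22685480 to 22686884 (signal value 11.0) had summits 5 bp apart, 1911 and 1916 bp below the record, in LOC107986924. The record itself held 0 bases of H3K27ac or GATA3 regions, and the strongest H3K27ac region of the window lay in the neighbouring BIN3 gene (22668514 to 22669171, signal value 10.8).

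EGR4, the smallest record of the set (2620 bp, minus strand of chromosome 2, 73290929 to 73293548), had 1 BHLHE40 region at the gene. It lay over the start at 73292752 to 73294021 (1270 bp), its summit was 131 bp before the start, and its signal value of 6.99 ranked 18947. The H3K27ac regions at the promoter were weak, with signal values of 2.97 and 3.55 and −log10 q of 2.37 and 4.04. The strongest regions of the window stood together past the gene's 3′ end, 6262 bp below the record for BHLHE40, where BHLHE40 (73283496 to 73285539, signal value 20.1) and H3K27ac (73284475 to 73285339, signal value 9.65) had summits 33 bp apart in LOC124907840. No GATA3 region was listed in the EGR4 window.

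NR4A1, which encodes the receptor Nur77 and is widely used as a reporter of T cell receptor signalling, lies on the plus strand of chromosome 12. Its record runs from 52022832 to 52059503, and the promoter table lists starts at 52022832 and 52037715. Of the 11 BHLHE40 regions in its window, 8 touched the record. The strongest, 52050327 to 52052251 (1925 bp, signal value 36.8, rank 820), lay inside the record, its summit 13678 bp past the second listed start. It overlapped a GATA3 region (52051044 to 52052008, signal value 7.15) and H3K27ac regions with signal values of 8.40 and 3.95. Whether a start absent from the promoter table lies nearer was not examined. The widest, 52056000 to 52061192 (5193 bp, signal value 26.7, rank 1732), ran over the last 3504 bp of the gene and 1689 bp past it. As at EGR1, its summit lay just beyond the 3′ end, by 331 bp.

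Along the rest of NR4A1, BHLHE40 regions lay near both listed starts. Those after the first start, 52023030 to 52024277 and 52024663 to 52026250, had signal values of 7.22 and 12.2, and those before the second start, 52036241 to 52036510 and 52036567 to 52037171, had 2.78 and 16.7. The other regions, 52041671 to 52042364 and 52052336 to 52054943, had 7.37 and 10.2. GATA3 lay in the record in 3 places of modest signal value, 7.27 at 52025590 to 52026192, 11.0 at 52041025 to 52042314 and the 7.15 given above. All 5 GATA3 regions in the NR4A1 window overlapped BHLHE40, and the strongest of them lay 47940 bp before the first start in ACVR1B, an activin receptor gene (51974561 to 51975296, signal value 46.7). The strongest H3K27ac region of any of the 9 windows lay in ATG101, an autophagy gene beyond NR4A1 (52069520 to 52070398, signal value 25.9, rank 40 of 113570).

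NR4A2, which encodes the receptor Nurr1, had the emptiest window. The record lies on chromosome 2 at 156324437 to 156332721 and held 0 bases of a factor region. Its 2 BHLHE40 regions lay above it, at 156333691 to 156334890 (1200 bp, signal value 16.4, rank 4898, summit 1615 bp from the record) and at 156341124 to 156342219 (signal value 5.12), in FLJ46875. The window held no GATA3 region and no H3K27ac region with −log10 q of at least 5. The strongest of its 6 H3K27ac regions reached a signal value of 4.07 and −log10 q of 4.55. Those within 2 kb of the gene had signal values of 2.52 and 2.66, below the median of 3.31 for the list. BHLHE40 thus had a region beside the gene where H3K27ac was weak and GATA3 had none.

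NR4A3, which encodes the receptor NOR1, is the longest record (45007 bp, plus strand of chromosome 9, 99821885 to 99866891) and had the most BHLHE40 regions. The strongest, 99818961 to 99822717 (3757 bp, signal value 33.6, rank 1035), covered the promoter and overlapped 2 GATA3 regions, 99819029 to 99819948 (signal value 20.8) and 99820094 to 99820868 (5.13). The strongest H3K27ac region of the window lay there too (99818958 to 99819973, signal value 11.4, rank 1623). The summits of the strongest region of each list at this place were between 2126 and 2514 bp before the start, in the record of LOC101928438. That of the second GATA3 region lay 1581 bp before the start. Soon after the start lay BHLHE40 regions at 99822960 to 99825176, 99826063 to 99826577 and 99826617 to 99827213, with signal values of 11.8, 2.78 and 8.66 and no H3K27ac.

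Inside the NR4A3 gene GATA3 had regions at 99842745 to 99843251 (signal value 17.8) and at 99851095 to 99852015 (8.83). The summit of the second was 1 bp from that of a BHLHE40 region at 99850679 to 99853291 (signal value 12.8), the closest pair in the 9 windows. Towards the 3′ end the pattern changed. From 99857842 to 99877518, 6 BHLHE40 regions with gaps of at most 2521 bp filled 84.5% of 19677 bp, ending 10627 bp past the gene, with signal values of 7.82 to 14.5. The widest of them, 99861886 to 99868794 (6909 bp, signal value 14.5, rank 6297), had its summit 1144 bp past the 3′ end. In that stretch 0 GATA3 regions and 3 H3K27ac regions were listed, none of them with −log10 q of at least 5. The stretch was picked out after its values were seen.

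**Figure D3:**
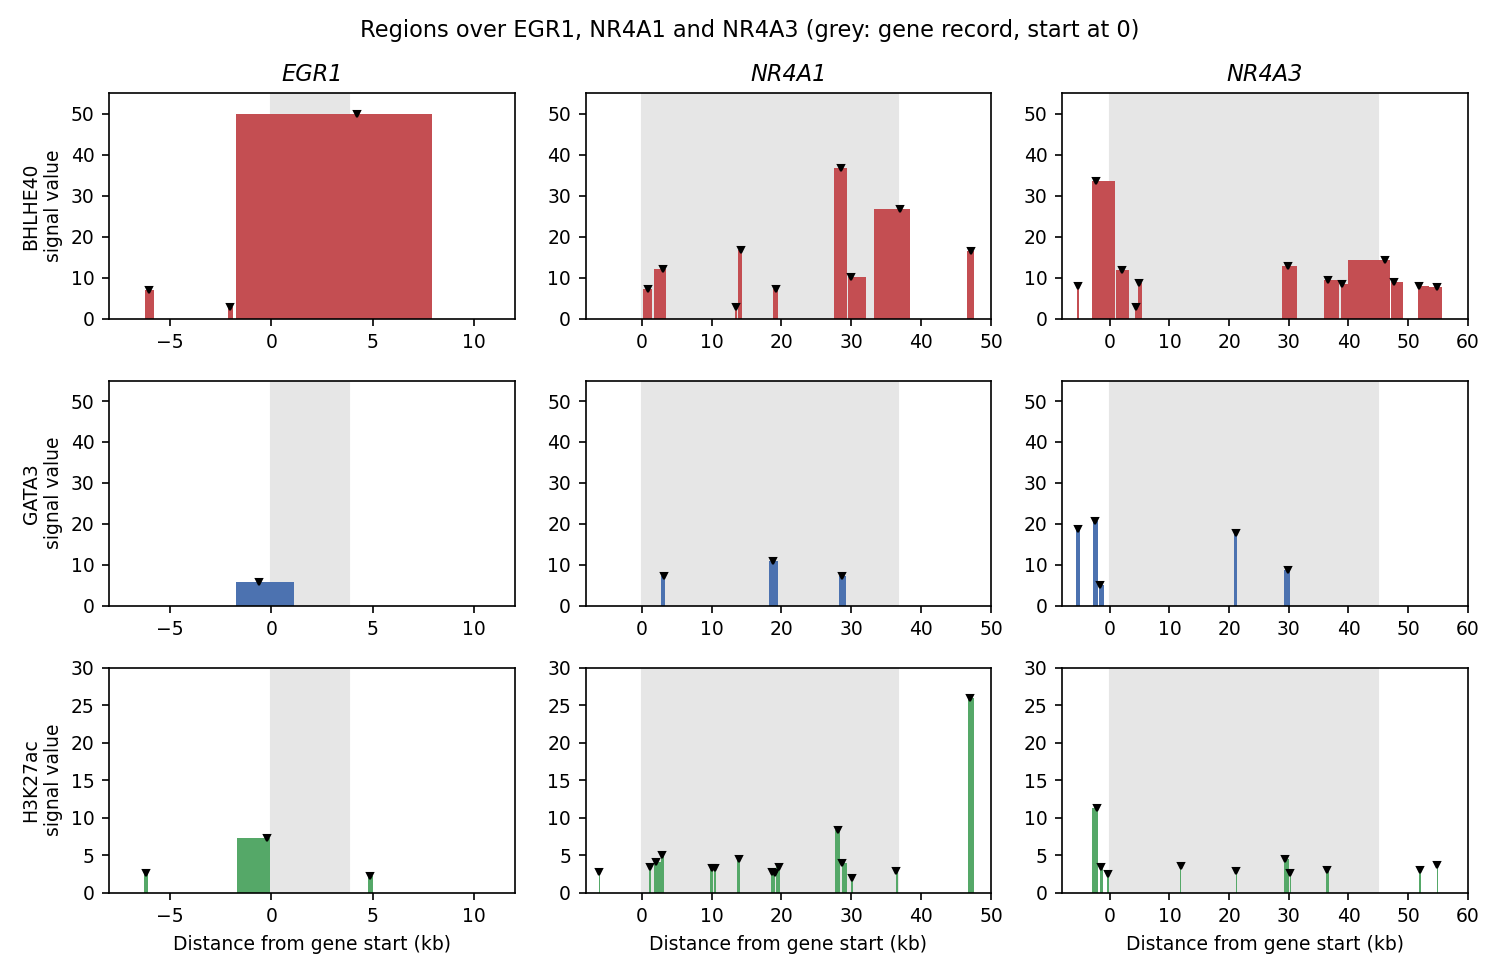
Signal value (vertical axes, on 1 scale for both factors and another for H3K27ac) of every region against the distance from the first start in kb, for EGR1, NR4A1 and NR4A3. Bars span the regions, triangles mark summits and grey shading marks the gene record. The bars over the right-hand edge of each grey block are the BHLHE40 regions of 9706, 5193 and 6909 bp, and GATA3 and H3K27ac show no bar of such width. Neighbouring H3K27ac regions are drawn as listed, without joining.

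NAB1 lies on the plus strand of chromosome 2 at 190648895 to 190692766. Compact regions of all 3 lists began just after its starts at 190648895 and 190649083. They were BHLHE40 at 190649123 to 190650375 (1253 bp, signal value 22.1, rank 2587), GATA3 at 190649217 to 190650836 (8.51) and H3K27ac at 190649216 to 190650107 (8.94, its strongest). The BHLHE40 and GATA3 summits there were 34 bp apart. A second BHLHE40 region, 190648197 to 190649002 (signal value 10.6), lay across the first start. Within the gene, BHLHE40 at 190678278 to 190679133 (signal value 12.4) overlapped GATA3 at 190678269 to 190679406 (8.60), and GATA3 stood without BHLHE40 at 190674360 to 190674824 (10.9) and 190679726 to 190680620 (9.03). By signal value, the strongest regions of both factors coincided beyond the gene, with summits 16 bp apart, 30344 and 30360 bp above the record: BHLHE40 at 190722212 to 190723415 (signal value 22.5) and GATA3 at 190722422 to 190723452 (34.1). The BHLHE40 region just after these starts was close to its distant counterpart in signal value (22.1) and higher in −log10 q (167 beside 157).

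NAB2 lies on the plus strand of chromosome 12 at 57089114 to 57095476, and no factor region touched its record. Upstream of the start, a BHLHE40 region at 57086204 to 57088921 (2718 bp, signal value 17.4, summit 467 bp before the start) overlapped 3 GATA3 regions. Those within 2 kb of the record, 57086771 to 57087278 and 57087843 to 57088733, had signal values of 4.91 and 12.1. H3K27ac lay there with a signal value of 8.75 (57087429 to 57088775). The summits of this H3K27ac region and of both GATA3 regions within 2 kb lay in the record of the neighbouring gene NEMP1. The BHLHE40 summit lay in no record. The strongest BHLHE40 region of the window, 57077923 to 57079346 (signal value 43.2, rank 543), and its strongest H3K27ac region (57077842 to 57078943, 9.56) lay in the nuclear envelope gene NEMP1. The strongest GATA3 region, 57110188 to 57110793 (signal value 37.3), lay in STAT6, the gene of the interleukin-4 signal transducer, with a BHLHE40 summit 37 bp away.

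BHLHE40 regions of at least 5000 bp were rare in the list, 95 of 26205, and lay over 3 of 9 members (EGR1, NR4A1 and NR4A3), against 0.544% of protein-coding records (109 records). The same 3 members were found with a minimum of 3000 bp, against 1.78% of records, and after joining neighbouring regions across gaps of up to 500 bp, against 0.858%. With a minimum of 10000 bp the count was 0, against 0.140%. Long records have more room to meet such a region. Among the 13219 records no longer than NR4A3 the share was nevertheless higher than over all records, at 0.681%. The GATA3 list held 4 regions of at least 5000 bp and the H3K27ac list 0. The H3K27ac list is of another kind, a pooled list of 113570 regions with a median width of 232 bp. Neighbouring regions were joined for BHLHE40 only, so the widths do not compare the breadth of H3K27ac and BHLHE40 domains. The members were chosen with earlier results of these data known, and the 5000 bp threshold had been used on the whole series before.

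In each of the 3 members the wide region held the 3′ end of the gene and had its summit past it, by 331 to 1144 bp. Of the 90 records with a wide BHLHE40 region whose strand the promoter table gives, 62 (68.9%) had the 3′ end inside the region and 56 had the 5′ end inside it. The region held the 3′ end alone in 26 and the 5′ end alone in 20. The summit lay past the gene end in 26 (28.9%), in 19 of them (21.1%) within 2 kb. These counts are of records and include the 3 members. The 109 records with a wide region lay under 77 regions, so neighbouring genes can share a region. In the 5 kb after the gene end, BHLHE40 regions filled 82.3% at EGR1, 78.3% at NR4A3, 33.8% at NR4A1 and 26.4% at EGR2, and 0% at EGR4, NAB1 and NAB2. Across 15843 records with a strand the median was 0%, and at least 50% was filled in 1.00% of them. In the 5 kb after the first start the share was 100% at EGR1, 76.7% at NR4A3, 64.4% at EGR2, 56.7% at NR4A1, 27.2% at NAB1, 15.9% at EGR4 and 0% at NAB2. It was at least 50% in 1.57% of all records with a strand. NR4A1 and EGR2 thus had more BHLHE40 coverage after the start than after the end, and the EGR1 and EGR4 records are shorter than 5 kb, so there the stretch after the start runs past the gene. Both measures were chosen after the summits had been seen.

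The share of the record inside BHLHE40 regions put the members in an order that window counts did not. It was 100% for EGR1, 46.3% for EGR2, 34.4% for NR4A3, 33.9% for NR4A1 and 30.4% for EGR4, then 5.05% for NAB1 and 1.87% for EGR3, and 0% for NR4A2 and NAB2. The median of the 9 was 30.4%, beside 0.496% over all protein-coding records, and 1 of 9 members had at least 50% covered, against 1.42%. The member records had a median length of 7172 bp, beside 24115 bp for all protein-coding records. A region of a given width fills more of a short record, and the part of length in these shares was not tested. Since no spread over samples exists, neighbours in this order such as NR4A3 and NR4A1 cannot be told apart. GATA3 regions covered 28.6% of EGR1, 9.39% of NAB1, 7.79% of NR4A1 and 3.17% of NR4A3, and 0% of the other 5. H3K27ac covered 17.2% of EGR2, 15.6% of NR4A1 and 10.6% of EGR4, and 5.03% or less of the other 6, among them 0% of EGR1 and EGR3.

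**Figure D4:**
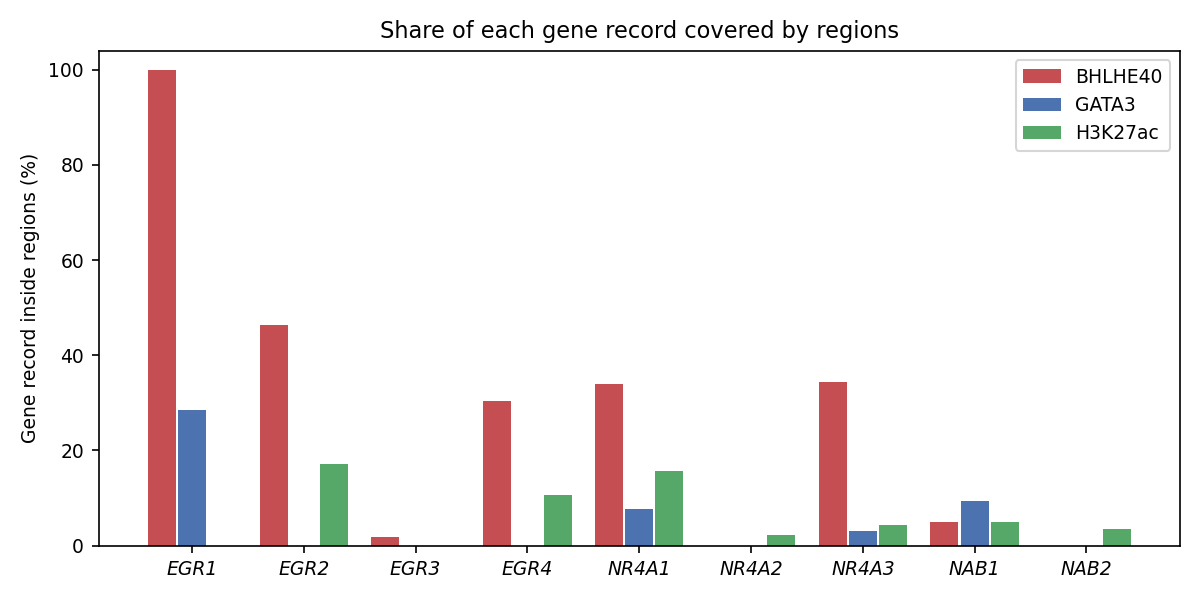
Percent of each gene record (vertical axis) inside regions of each list, 1 bar per list for the 9 genes on the horizontal axis. The BHLHE40 bar reaches 100% at EGR1 and is the tallest of the 3 at EGR2, EGR3, EGR4, NR4A1 and NR4A3.

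Overlap between the factors in the windows was set beside that of each whole list. Of the 38 GATA3 regions, 25 overlapped a BHLHE40 region by at least 1 bp (65.8%, 95% Wilson interval 49.9% to 78.8%), against 48.7% of the whole GATA3 list. Of the 58 BHLHE40 regions, 22 overlapped GATA3 (37.9%, 26.6% to 50.8%), against 53.0% of its list. These intervals cover counting only, and regions of a locus are not independent. For BHLHE40 the value of the whole list lay above the interval. For GATA3 it lay just below the interval, but where the summit had to lie inside the other region it lay within it (63.2%, 47.3% to 76.6%, against 47.8%). Regions with H3K27ac made up 55.3% of the GATA3 regions (21 of 38, 39.7% to 69.9%), against 49.1%, and 74.1% of the BHLHE40 regions (43 of 58, 61.6% to 83.7%), against 76.4%. Where the BHLHE40 summit had to lie inside an H3K27ac region, the share was 39.7% (28.1% to 52.5%), against 55.4% of the list.

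In the 25 shared places the GATA3 summit lay a median of 37 bp from the nearest BHLHE40 summit, close to 35 bp over the 14123 shared places of the lists, and 14 of 25 were within 50 bp (56%, 37.1% to 73.3%, against 61.5%). The closest pairs were those inside NR4A3 (1 bp) and below EGR3 (5 bp). The farthest pair, 4847 bp, was at EGR1, where the GATA3 summit stood before the start and the BHLHE40 summit after the 3′ end of the gene. Median signal values of the windows were near those of the lists, 9.86 beside 9.35 for BHLHE40, 10.3 beside 11.2 for GATA3 and 3.25 beside 3.31 for H3K27ac. BHLHE40 regions were wider in the windows, with a median of 1148 bp beside 739 bp.

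Other immediate-early genes were counted for context. Of 20 such genes, including FOS and JUN, 19 had a BHLHE40 region at the gene, 15 a GATA3 region and 20 an H3K27ac region, beside 58.7%, 44.4% and 74.9% of all protein-coding records. A BHLHE40 region of at least 5000 bp lay over 4, beside 0.544%: MCL1, a survival factor (10129 bp), DUSP2, a phosphatase of MAP kinases (8807 bp, signal value 103), PPP1R15A, a regulator of the stress response (7763 bp), and IER2 (6625 bp). IER3 and JUN followed with 4497 and 4204 bp. The median share of the record inside BHLHE40 regions was 45.8%, and 10 of 20 had at least 50%. Their records are short, with a median of 4142.5 bp beside 24115 bp for all protein-coding records, and the part of length was not tested. EGR1 thus stood between MCL1 and DUSP2 in width, while NR4A1 and NR4A3 combined a wide region with a record covered to 33.9% and 34.4%.

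**Figure D5:**
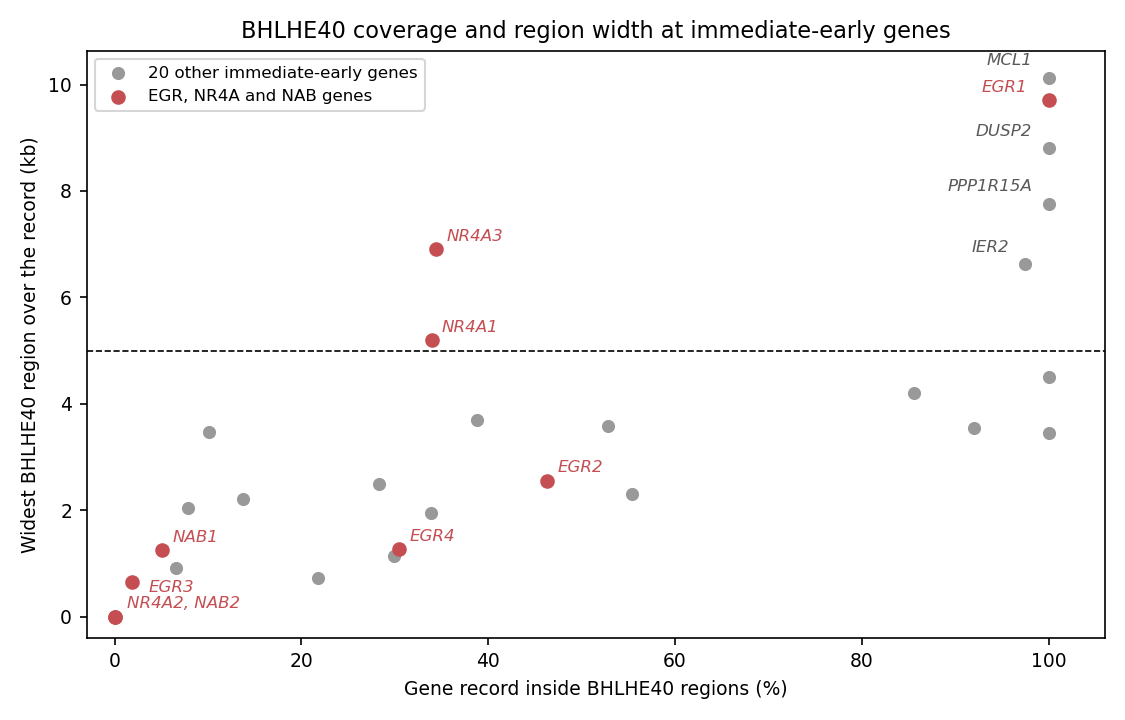
Width in kb of the widest BHLHE40 region touching each record (vertical axis) against the percent of the record inside BHLHE40 regions (horizontal axis). Red points are the 9 genes, grey points 20 other immediate-early genes, and the dashed line marks 5 kb. EGR1 lies at the top right with 9706 bp and 100%, NR4A1 and NR4A3 lie above the line at 33.9% and 34.4%, and the other 6 red points lie below it.

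Of 13 known upstream regulators of EGR and NR4A genes, such as SRF, ELK and MEF2 factors, 13 had a BHLHE40 region at the gene, 10 a GATA3 region and 13 an H3K27ac region, beside the same background shares. A wide BHLHE40 region lay over 0 of 13, which at a background of 0.544% is no departure from it. Their records are long, with a median of 76027 bp beside 24115 bp for all protein-coding records, and the part of length in these counts was not tested. Their widest were 2089 bp at MEF2D, 1938 bp at CREB1, 1774 bp at CABIN1, a calcineurin and MEF2 repressor, and 1631 bp at NFATC1. The median share of their records inside BHLHE40 regions was 2.80%. Of 12 genes known to depend on EGR or NR4A factors in T cells, 11 had a BHLHE40 region at the gene, 12 a GATA3 region, 11 an H3K27ac region and 0 a wide BHLHE40 region. The shares of all protein-coding records were 58.7%, 44.4%, 74.9% and 0.544%, so the 0 is again no departure. The median length of these records was 75404 bp, beside 24115 bp for all protein-coding records, and the part of length was not tested here either. Their widest were 4242 bp at IL2, the gene of interleukin-2, 3670 bp at DGKA, a kinase that limits diacylglycerol signalling, 2559 bp at BCL2L11 and 1813 bp at IKZF2. The record of IL2 was covered to 73.7% and that of ID3 to 82.3%, and the median of the list was 4.58%.

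By the width of the BHLHE40 region over the record, the protein-coding genes at the top of the list were SFPQ (16389 bp), EIF5 (15198 bp), NCL (15026 bp), TSPOAP1 (13890 bp) and HNRNPH1 (13723 bp). The EGR1 region ranked 26 of 26205 in width. It was narrower than each of these 5 but had a higher signal value, 49.9, than SFPQ (24.9), EIF5 (17.7), NCL (18.7) and HNRNPH1 (12.1), and a lower one than TSPOAP1 (55.6). Nearest to EGR1 in width, picked out after the values were seen, were the region of 9763 bp shared by the neighbours MAT2A and GGCX (signal value 18.4) and those over IRF1, an interferon regulatory factor (9649 bp, 31.6), and HSPA8, a chaperone (9538 bp, 26.9).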

How the data were processed

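Peaks came from the deposited narrowPeak lists of 3 groups of 2 samples each. MACS2, bcl2fastq 2.20 and hg38 are named in the submitters' processing notes, and other steps are not given in the sources used here. Each list is pooled over its group: the authors' score in the factor lists ran from 540 to 1000, as an irreproducible discovery rate of up to 0.05 gives, and the H3K27ac list is deposited as pooled. The deposited signal value and the deposited −log10 q-value served to describe, rank and filter regions of 1 list at a time. No genome sequence was used. Gene records came from RefSeq GRCh38.p14, and starts, strands and sequences from the RefSeq promoter table. Starts that the promoter table lacks were not considered. Exons, introns and untranslated regions were not told apart. Coordinates are 1-based.

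Overlap means at least 1 bp. Wilson intervals have 95% confidence and cover counting only. No test was run, since no list holds a value per sample, and whether the 2 samples of a group came from separate cultures is not stated. Named were, per member, the strongest region of each list, every factor region within 2 kb, every BHLHE40 region of at least 5000 bp, the 5 genes with the widest BHLHE40 regions, and up to 6, 4 and 4 genes of 3 lists. The members and lists were chosen with earlier results of these data known. The coverage after gene starts and ends, the genes nearest to EGR1 in width, the NR4A3 stretch and the joining of regions were chosen after seeing the values. Functions were tested on 500 simulated records with 0 mismatches. Software was pandas 2.3.3 and numpy 2.4.6 on Python 3.11.15, with scipy 1.17.1 for intervals and matplotlib 3.10.9 for figures. Alternatives covered flank width, score, q, width, overlap and promoter length.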

Additional observations from a re-analysis of the deposited data

How the results depend on the processing

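Over 26 results and 70 alternative settings, 51 values stayed within 1.5 times or the interval of the reported value, 19 moved and 0 reversed. No paired analysis was possible because the deposited lists pool the 2 samples of a group, and leaving out a replicate was not run for the same reason. With 10 kb flanks, which hold fewer regions by construction, the windows held 20 GATA3 and 58 H3K27ac regions, 80% of the GATA3 regions overlapped BHLHE40 and 70% overlapped H3K27ac, and the strongest region stayed the same in 3 of 7 members for GATA3 and 5 of 9 for H3K27ac. Ranked by −log10 q, the strongest region stayed the same in 7 of 9 members for BHLHE40, 7 of 7 for GATA3 and 8 of 9 for H3K27ac. It changed at EGR2 and NAB1 for BHLHE40 and at NAB2 for H3K27ac. Requiring −log10 q of at least 5 left 44 H3K27ac regions and 53.4% of BHLHE40 regions with H3K27ac (60.2% of the list). GATA3 lay at 4 members within the record alone (40.8% of all records) and at 3 of 7 within 1 kb of a start (23.7%). A wide BHLHE40 region was found at 0 members from 10000 bp and at 1 where the region had to cover at least 50% of the record (0.284%). In place of BHLHE40, H3K27ac and GATA3 regions each covered at least 50% of the record at 0 members, against 0.674% and 0.354% of all records. At such shares 0 members is no departure. The widest H3K27ac region of the whole list, without joining of neighbours, was 2932 bp. This comparison was added after seeing the data. Requiring the summit inside H3K27ac gave 36.8% for GATA3 (33.3% of its list) and 39.7% for BHLHE40 (55.4%), and requiring 50% of the region gave 39.5% (32.9%) and 37.9% (57.5%), so the window BHLHE40 regions stood further below their list than at 1 bp of overlap. The share of GATA3 regions that overlapped BHLHE40 was 63.2%, 60.5% and 62.1% with the summit inside, with 50% of the region inside and with a score of at least 830, and the value of the list (47.8%, 46.6% and 47.0%) lay within each interval. GCGTGGGCG lay within 150 bases of 1 member start. The cause was not tested where construction does not give it. Depth is unknown, so no limit from depth can be given, and a missing region means only that none passed the authors' threshold.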

Other observations

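Several regions in the windows lay in the records of neighbouring genes, so a count within 50 kb is not a count for the named gene. The strongest BHLHE40 region of the NAB2 window (in NEMP1), the strongest GATA3 regions of the NR4A1 window (in ACVR1B) and the NAB2 window (in STAT6), and the strongest H3K27ac regions of the NR4A1 window (in ATG101) and the EGR3 window (in BIN3) were of this kind. By family, the EGR windows held 21 BHLHE40, 12 GATA3 and 32 H3K27ac regions over 4 genes, the NR4A windows 26, 13 and 43 over 3 genes, and the NAB windows 11, 13 and 44 over 2 genes. The highest BHLHE40 signal values of the families were 49.9, 36.8 and 43.2.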
